A study of Homo sapiens with 57 samples.

Results

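The unstimulated state of HK-2 cells was described from the 48 wells that received 0.5% DMSO and no herbal extract, out of 57 wells in the series. The wells were chosen by their treatment label alone, and their levels played no part in the choice. HK-2 is an immortalised human cell line of the proximal kidney tubule, a single line without a genotype difference between wells. All 48 wells were given 0.5% DMSO for 24 h in 384-well plates seeded with 3000 cells per well, and they form 3 sets of 16, labelled HK2_2, HK2_3 and HK2_4, each of which served as the control of another herb in the series (Roucongrong, Gusuibu and Yinyanghuo). The number in the set name is not explained in the labels, so a difference between sets cannot be told apart from a difference in plate, day or cell passage. The labels do not say that wells came from separate cultures, so p-values measure the spread between wells, which may be technical.

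The assay, RASL-seq, covered 412 genes. Neighbouring DNA probes annealed to a messenger RNA are joined by a ligase, and the joined products are counted by sequencing. Each gene is read from ligated probe products and not along its whole transcript, so a count needs no correction for transcript length, but it carries the ligation efficiency of the probes. An order of genes by count is therefore an order of probe signal, and probe efficiency was not tested. Levels are given as CPM, the share of a well's counts on a scale where 10000 CPM is 1%, after TMM normalization. In wells of cultured cells, fewer cells of a kind and less RNA per cell cannot be told apart.

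Proximal tubule cells reabsorb filtered solutes and carry the enzymes of renal gluconeogenesis. After injury or in long culture, tubule cells are known to lose these functions and to take up mesenchymal features such as vimentin filaments. They are also a known source of interleukin 6 and fibronectin. The panel covers genes of these programmes together with signalling, hormone and plasma protein genes.

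A well held 19690 to 75969 counts (median 35223), with medians of 42023 in HK2_2, 38086.5 in HK2_3 and 28328 in HK2_4. A count of 3, taken as the floor below which a gene was treated as not detected, was worth 39.5 to 152 CPM depending on the well. No 2 wells held the same counts, and within a set the most similar wells still differed with a chi-squared of 1.66 for each degree of freedom, where sampling noise gives 1. The number-14 wells stood apart in each set through a group of genes described further on, and the well least like the others was number 14 of HK2_4 (mean correlation with the other wells 0.904, against a median of 0.950 over all wells).

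The cell type label was checked first. Of 4 proximal tubule markers on the panel, HNF4A, PCK1 and EPHX2 had no well above the floor, and glucose-6-phosphatase (G6PC1) exceeded it in 18 of 48 wells. The summed level of the 4 markers ranged from 0 to 372 CPM over all wells, with set medians of 117, 94.9 and 129 CPM. Markers of injured or dedifferentiated tubule were high in sum by contrast, with set medians between 38788 and 49353 CPM. Vimentin (VIM) and N-cadherin (CDH2) led this sum, and the list's median gene had 3217 CPM. Whether CDH2 marks an injured state in these cells was not tested. The list held 9 genes, of which HAVCR1, SOX9 and CD44 were not on the panel. Of these 6 markers 4 were above the floor in every well, and CCL2 was the member without a well above the floor. General epithelial markers were present too, with SFN, EGFR and JUP above the floor in every well and MUC1 in 47. Of 18 immune cell markers 12 never exceeded the floor, and the highest, ITGB2, had 302 ± 136 CPM (SD, n = 48). Of 3 endothelial markers KDR exceeded the floor in 41 wells, CDH5 in 2 and S1PR1 in none. Of 2 fibroblast and mesangium markers, the mesenchymal factor TWIST1 was above the floor in every well, with set medians of 474, 310 and 460 CPM, and the collagen gene COL1A2 in none. In the list of steroidogenic, hepatic and neural markers 6 of 8 were never above it. The label of proximal tubule cells therefore rests on the cell line, since the 4 tubule markers measured were at or near the floor. The marker list for that segment held 17 genes, and those not on the panel could not be examined.

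The levels spanned a wide range. A total of 20 genes had a mean of at least 10000 CPM, 92 lay between 1000 and 10000 CPM, 127 between 100 and 1000 CPM and 173 below 100 CPM. The 10 highest genes took 51.0% of the counts, 45 genes made up 80% of them, and the median gene had 166 CPM, 825-fold less than the highest. In every well 156 genes were above the floor, in no well 92, and 164 genes were above it in some wells. No gene had 0 counts in all 48 wells. When each well was thinned to the depth of the shallowest, 19690 counts, 140 genes stayed above the floor in every well and 123 never reached it.

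**Figure D1:**
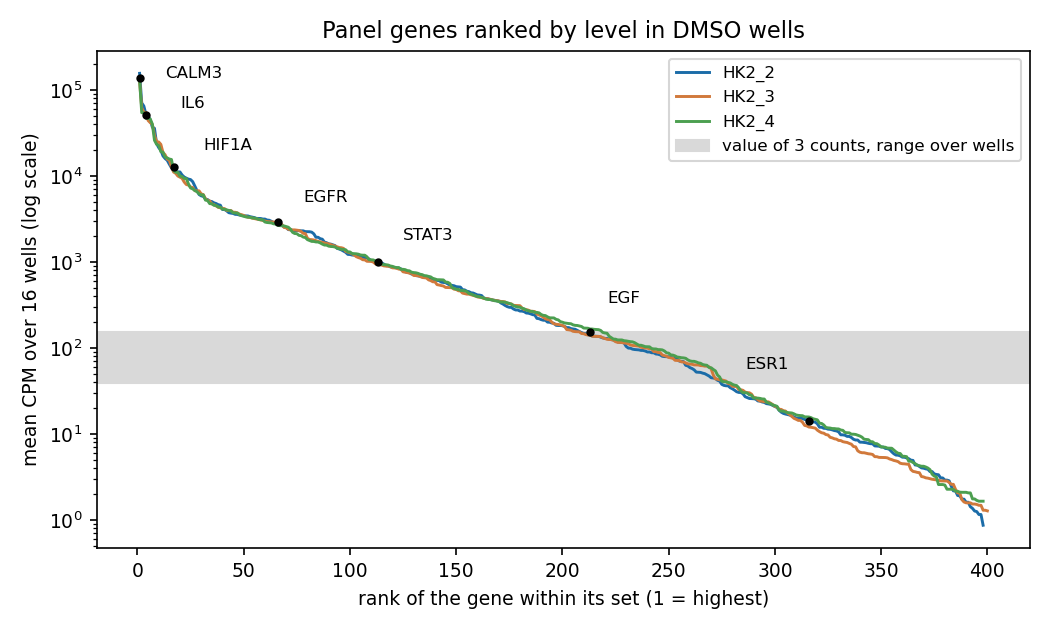
Mean CPM (log scale) of each panel gene against its rank within its set, with 1 line for each of the 3 DMSO sets (16 wells each), points for named genes at their mean over 48 wells, and a grey band for the value of 3 counts over the wells (39.5 to 152 CPM). The 3 lines lie over each other, with a steep start led by CALM3 and a long tail below the band.

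Calmodulin 3 (CALM3, Entrez 808), a calcium sensor, gave the highest signal in each of the 48 wells. Its levels ran from 127439 to 206285 CPM (median 153836) in HK2_2, from 96582 to 150158 (median 126752) in HK2_3 and from 107426 to 143942 (median 130971) in HK2_4. The mean was 2.36 times that of the next gene, thioredoxin (TXN, Entrez 7295), the redox protein, at 57836 ± 6747 CPM (SD, n = 48). CALM2, which encodes the same protein, gave less signal, at 4382 ± 713 CPM (SD, n = 48). The probe sequences were not analysed here, so a split of signal between such similar transcripts is uncertain, as it also is for ACTB and ACTG1.

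Below CALM3 much of the order followed the set. TXN was above YWHAB, a 14-3-3 adaptor protein, in 16 of 16 wells of HK2_2 but 9 of 16 in HK2_3 and in HK2_4. YWHAB was above interleukin 6 (IL6, Entrez 3569) in 1, 14 and 16 wells of the 3 sets, and IL6 above YWHAE, another 14-3-3 protein, in 16, 0 and 2. HSP90B1, the HSP90 of the endoplasmic reticulum, and fibronectin (FN1) crossed within every set, with HSP90B1 above FN1 in 11, 14 and 8 wells. A clear step followed: FN1 was above the small GTPase CDC42 in 47 wells and CDC42 above vimentin (VIM) in 43. Vimentin, RHOA, the phosphatase subunit PPP2R5C, caveolin 1 (CAV1) and YWHAZ took ranks 9 to 13, with RHOA above PPP2R5C in 0, 16 and 15 wells of the sets, and YWHAZ was above syndecan 2 (SDC2) in 45. The remaining genes of the first 20 were SDC2, N-cadherin (CDH2), the cell cycle inhibitor locus CDKN2A, HIF1A, CDK1, the fucosidase FUCA2 and the G protein subunit GNG5, all between 10147 and 14589 CPM on average. Of the first 20 genes, 17 were in the first 20 of every set.

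**Figure D2:**
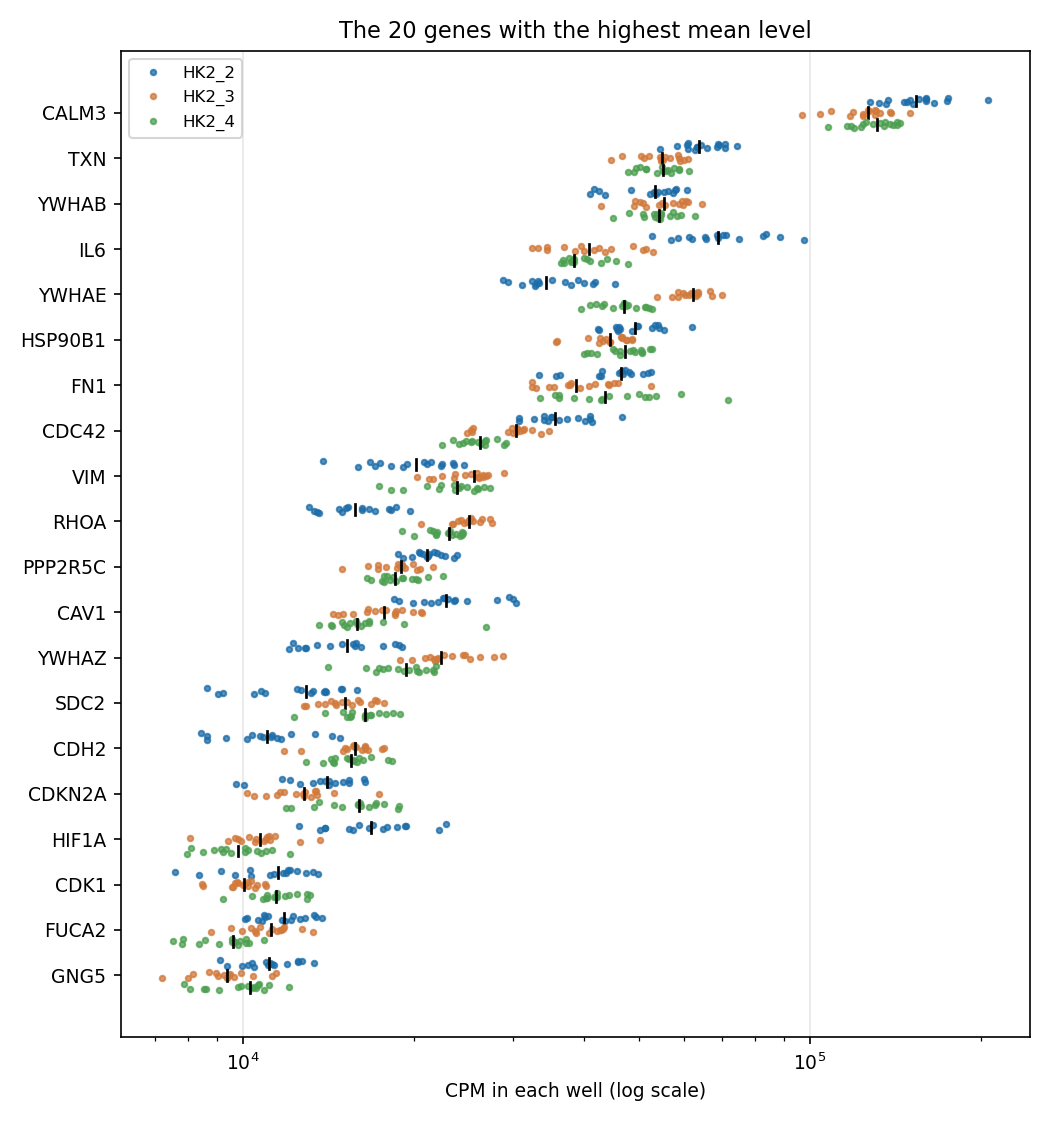
CPM (log scale) of the 20 genes with the highest mean level in each of the 48 wells, coloured by set, with a black bar at each set's median. CALM3 stands alone at the top, and IL6, YWHAE and HIF1A are displaced between sets while YWHAB and FN1 overlap.

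By group, the 7 genes for 14-3-3 proteins, phosphoserine-binding adaptors, took 12.8% of all counts, and 6 of them were above the floor in every well. The junction and mesenchymal list took 6.73% and the cytokine list 6.65%, but the share of the cytokines rested on IL6: 12 of the 35 cytokine and chemokine genes, TNF, IL1B and CCL5 among them, never exceeded the floor, and the list's median gene had 25.7 CPM. Interleukin 18 (IL18) had 2200 ± 293 CPM and LIF, a cytokine of the IL6 family, 796 ± 294 CPM (SD, n = 48). Redox genes took 6.41%, led by TXN, with heme oxygenase 1 (HMOX1) at 5047 ± 1330 CPM. Chaperones took 5.84%, and the matrix list, led by FN1, 5.17%. Nuclear receptors were low: 2 of 26 were above the floor in every well, 7 in none, and the highest, the oxysterol receptor NR1H2, had 658 ± 183 CPM (SD, n = 48). Of 12 cytochrome P450 genes 6 were never above the floor, and CYP2S1 was the highest at 1274 ± 614 CPM. Of 40 genes for secreted plasma proteins and the IGF axis, 18 never exceeded it, including albumin (ALB), transferrin (TF), IGF1 and IGF2.

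The 14 genes that the study treats as key targets lay at all heights. SDC2, a membrane proteoglycan, had 14589 ± 2431 CPM, and 9 of the 14 were above the floor in every well. EGFR (2940 ± 761 CPM), STAT3 (996 ± 253), PTK2 (823 ± 221), AKT1 (768 ± 243) and PIK3R1 (612 ± 300) were in the middle range (SD, n = 48). EGF, a ligand of EGFR, exceeded the floor in 31 wells, ESR2 in 26, PTGS2 in 15, HRAS in 10 and the oestrogen receptor ESR1 in 2. The ESR1 wells held at most 4 counts, so its level could not be resolved at this depth.

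The 3 sets were compared to ask whether untreated cells of different sets had the same levels. By edgeR's quasi-likelihood F test over the 3 sets, 108 of 412 genes (26.2%) differed at an adjusted p under 0.05, 95 of them among the 183 genes with a mean of at least 10 counts. Of the 20 highest genes 18 differed, the others being YWHAB (adjusted p = 0.425, edgeR) and FN1 (adjusted p = 0.0711, edgeR). Between HK2_3 and HK2_2, 46 genes (11.2%) were higher in HK2_3 and 47 (11.4%) lower. Between HK2_4 and HK2_2, 41 (9.95%) were higher in HK2_4 and 47 (11.4%) lower, and between HK2_4 and HK2_3, 9 (2.18%) were higher in HK2_4 and 15 (3.64%) lower. The comparisons share wells, so their counts are not independent. Most differences were small, with medians of the called log2 differences of 0.54, 0.51 and 0.39 in size, and 38, 35 and 4 genes also passed a fold change above 1.5 or below 0.67. The split of directions depended on the scaling: without normalization beyond the total it was 54 higher to 36 lower for HK2_3 against HK2_2 and 58 to 34 for HK2_4 against HK2_2, with upper-quartile scaling 50 to 34 and 5 to 22 for HK2_3 against HK2_2 and HK2_4 against HK2_3, and DESeq2 gave 15 to 15 for the last. No gene called in a pair changed direction under RLE, upper-quartile or total scaling or with DESeq2.

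Interleukin 6 was the abundant gene that set HK2_2 apart. Its levels were 52668 to 97390 CPM (median 68753) in HK2_2, 32321 to 52898 (median 40776) in HK2_3 and 36384 to 47832 (median 38371) in HK2_4. Every HK2_2 well was above every HK2_4 well, and it overlapped HK2_3 at the edge. IL6 was lower by a log2 difference of -0.76 (standard error 0.07, adjusted p = 1.84e-13, edgeR) in HK2_3 and -0.82 (standard error 0.07, adjusted p = 3.55e-14, edgeR) in HK2_4, and it ranked second in HK2_2, sixth in HK2_3 and seventh in HK2_4. The hypoxia factor HIF1A moved likewise, with 12539 to 22846 CPM (median 16846) in HK2_2, 8055 to 13679 (median 10715) in HK2_3 and 7982 to 12116 (median 9817) in HK2_4. Its log2 differences were -0.67 and -0.80 (standard error 0.07 each, adjusted p = 1.46e-11 and 8.16e-14, edgeR). LIF fell by 0.48 in HK2_3 and by 0.72 in HK2_4 (log2, adjusted p = 0.00942 and 0.000135, edgeR), while IL18 had differences of -0.03 and -0.18 that did not pass the test (adjusted p = 0.852 and 0.0822, edgeR). Of the 35 cytokine genes, 3 (8.57%) were called over the 3 sets, against 26.2% of all genes tested. Only 8 of the 35 were above the floor in every well, so this share cannot be read apart from detection. Over the panel, 13 of 229 genes with a mean under 10 counts were called, and 51.9% of the others.

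The 14-3-3 protein YWHAE and the actin regulators went the other way. YWHAE had 28799 to 45390 CPM (median 34212) in HK2_2, 53774 to 70047 (median 62101) in HK2_3 and 39472 to 52572 (median 47045) in HK2_4, and the HK2_3 wells overlapped neither of the other sets. It was 0.79 higher in HK2_3 than in HK2_2 (log2, standard error 0.05, adjusted p = 3.62e-19, edgeR), 0.39 higher in HK2_4 than in HK2_2 (adjusted p = 2.48e-08, edgeR), with a log2 difference of -0.41 between HK2_4 and HK2_3 (adjusted p = 2.51e-08, edgeR). RHOA, the GTPase of stress fibres, had 13085 to 19710 CPM (median 15748) in HK2_2, 20621 to 27476 (median 25024) in HK2_3 and 19046 to 24402 (median 23078) in HK2_4, with no overlap between HK2_2 and HK2_3 and log2 differences of 0.64 and 0.51 from HK2_2 (adjusted p = 6.35e-16 and 6.8e-12, edgeR). Its relative CDC42 was lower in both, by log2 differences of -0.31 and -0.51 (adjusted p = 3.68e-06 and 1.6e-11, edgeR). So the 2 GTPases, which rank 8 and 10, changed in opposite directions between the same sets.

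Some adhesion genes were higher outside HK2_2, and junction and mesenchymal genes went both ways. Of the 12 genes of the junction and mesenchymal list, 3 were higher and 3 lower in HK2_3 than in HK2_2 (3 and 1 with upper-quartile or total scaling), and 4 were higher and 1 lower in HK2_4. Caveolin 1 was lower in both, by log2 differences of -0.43 and -0.52 (adjusted p = 3.52e-06 and 5.7e-08, edgeR), and TWIST1 was lower in HK2_3 (-0.57, adjusted p = 0.0312, edgeR). Integrin beta 1 (ITGB1) had 3324 to 6859 CPM (median 5165) in HK2_2, 7275 to 9669 (median 8667) in HK2_3 and 4435 to 7959 (median 6621) in HK2_4, log2 differences from HK2_2 of 0.68 and 0.30 (adjusted p = 3.51e-11 and 0.00124, edgeR). N-cadherin was 0.49 and 0.48 higher (adjusted p = 1.1e-08 and 2.54e-08, edgeR), vimentin 0.32 and 0.23 (adjusted p = 0.000131 and 0.00838, edgeR) and SDC2 0.30 and 0.38 (adjusted p = 0.000659 and 1.55e-05, edgeR). In the syndecan, integrin and focal adhesion list 5 of 13 genes were higher in HK2_3 than in HK2_2 and 0 lower, against 11.2% and 11.4% of all genes. In HK2_4 3 were higher (5 of 13 without normalization beyond the total), against 9.95% of all genes. Of the 13 genes of this list, 8 were above the floor in every well. Over the 3 sets 38.5% of the list was called, against 51.9% of all genes with a mean of at least 10 counts. The matrix list was mixed: the laminin chain LAMC1 was higher, by 0.69 and 0.59 (adjusted p = 5.86e-05 and 0.000804, edgeR), while the laminin chain LAMB1, the proteoglycan versican (VCAN) and IGFBP7, a secreted IGF-binding protein, were lower. IGFBP7 had the largest difference among genes with a mean of at least 10 counts, with 2339 to 4977 CPM (median 3244) in HK2_2, 1055 to 2227 (median 1810) in HK2_3 and 868 to 2911 (median 1482) in HK2_4. Its log2 differences were -0.95 and -1.12 (standard errors 0.12 and 0.13, adjusted p = 8.04e-09 and 2.3e-10, edgeR), and it ranked 50 in HK2_2, 84 in HK2_3 and 89 in HK2_4.

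Cell cycle and survival genes were among the largest differences. CDK2, the kinase of S-phase entry, had 1070 to 2314 CPM (median 1832) in HK2_2, 662 to 1321 (median 897) in HK2_3 and 723 to 1477 (median 1027) in HK2_4. TFDP1, a partner of the E2F transcription factors, had log2 differences from HK2_2 of -0.73 and -0.79 (adjusted p = 7.03e-08 and 1.85e-08, edgeR), cyclin D1 (CCND1) of -0.46 and -0.76 (adjusted p = 0.00011 and 1.15e-08, edgeR), and the anti-apoptotic BCL2L1 of -0.73 and -0.93 (adjusted p = 0.00168 and 0.000135, edgeR). In the cell cycle list 11 of 22 genes differed over the 3 sets, against 26.2% of all genes tested and 51.9% of those with a mean of at least 10 counts. The list went both ways, with 2 genes higher and 5 lower in HK2_3 than in HK2_2 and 4 higher and 5 lower in HK2_4 (6 and 4 without normalization beyond the total). Cyclin G1 (CCNG1) was among the higher, by 0.30 and 0.35 (adjusted p = 0.00052 and 8.85e-05, edgeR). CDKN2A was higher in HK2_4 than in HK2_3 by 0.31 (adjusted p = 0.00201, edgeR).

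Some genes set HK2_3 or HK2_4 apart instead. The transcription factor CREB1 had 1922 to 3083 CPM (median 2355) in HK2_2, 3131 to 5091 (median 4025) in HK2_3 and 1840 to 3087 (median 2676) in HK2_4, so that the HK2_3 wells were above every other well. HSPB1, the small heat shock protein, was lowest in HK2_3, with log2 differences of -0.61 from HK2_2 (adjusted p = 7.41e-07, edgeR) and 0.71 between HK2_4 and HK2_3 (adjusted p = 6.88e-08, edgeR). HMOX1 was lowest in HK2_4, 2705 to 5007 CPM (median 3702), with log2 differences of -0.54 from HK2_2 and -0.71 from HK2_3 (adjusted p = 9.32e-07 and 5.94e-09, edgeR). EGFR was highest in HK2_3, with 2137 to 4803 CPM (median 3610), and JAK1, a cytokine receptor kinase, was too, with 4974 to 7741 CPM (median 6098). Beta-actin (ACTB), often used as a reference gene, was 0.74 higher in HK2_3 and 0.38 higher in HK2_4 than in HK2_2 (log2, adjusted p = 4.53e-09 and 0.00178, edgeR).

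**Figure D3:**
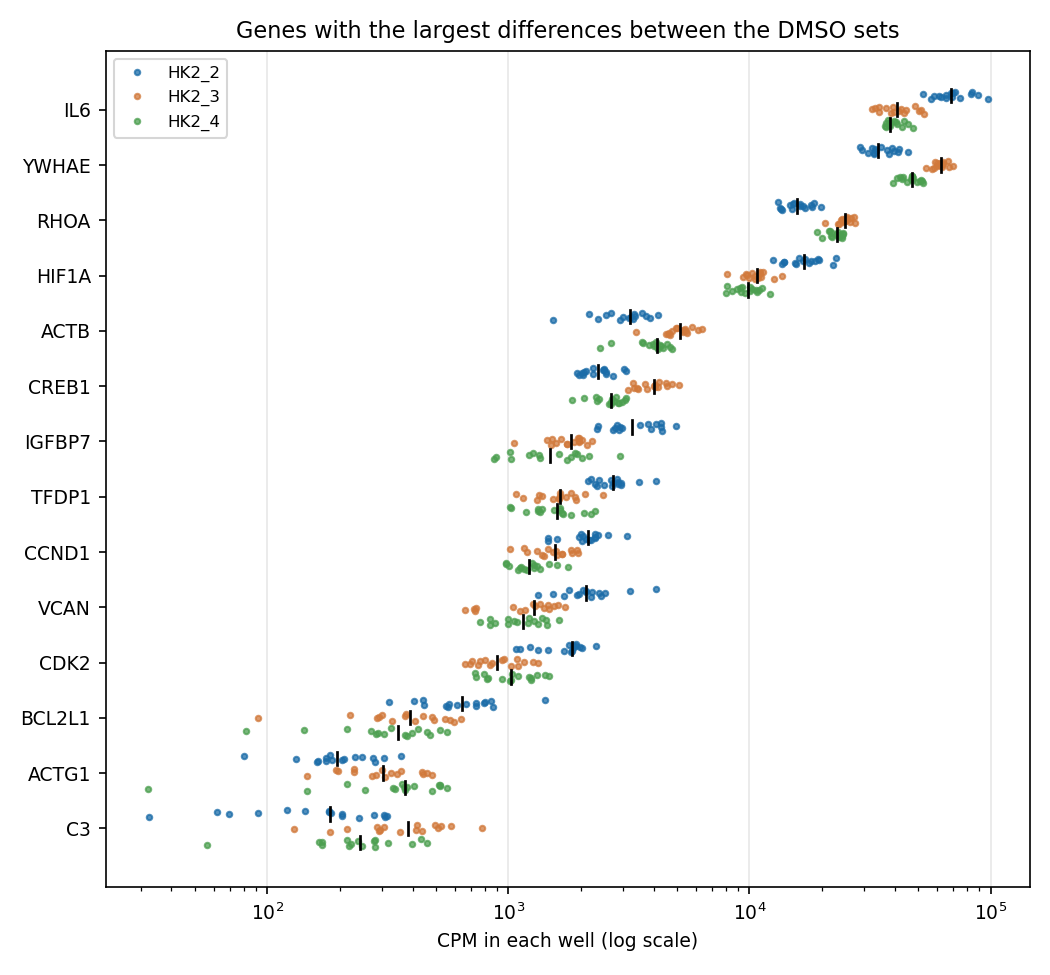
CPM (log scale) in each of the 48 wells for the 14 genes with the largest or most significant differences between sets, chosen by those differences, coloured by set with a black bar at the median. IL6, HIF1A, IGFBP7, TFDP1, CCND1, VCAN, CDK2 and BCL2L1 are highest in HK2_2, and YWHAE, RHOA, ACTB, CREB1, ACTG1 and C3 are lowest there.

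Of the 14 key targets 7 differed over the 3 sets, SDC2, IL6, EGFR, STAT3, PTK2 and AKT1 among them. The share over all genes tested was 26.2%, and 51.9% over those with a mean of at least 10 counts. STAT3 was lower in HK2_3 than in HK2_2 (a log2 difference of -0.36, adjusted p = 0.0226, edgeR), PTK2 0.40 higher in HK2_3 (adjusted p = 0.0208, edgeR) and AKT1 lower in HK2_4 (-0.48, adjusted p = 0.0129, edgeR). The STAT3 call was lost with upper-quartile scaling (adjusted p = 0.084, edgeR) and the AKT1 call after thinning (adjusted p = 0.27, edgeR), and both were lost with total scaling and with the total count as covariate.

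By the thresholds the study applied to its herbs (unadjusted p under 0.05 with a fold change above 1.5 or below 0.67), here with edgeR, 55 genes (13.3%) differed between HK2_3 and HK2_2, 53 (12.9%) between HK2_4 and HK2_2 and 39 (9.47%) between HK2_4 and HK2_3, although no well had received an extract. For its own calls the study's methods name DESeq, whereas the submitters' processing notes name DESeq2. With DESeq2 the same thresholds gave 38, 43 and 28 genes. Of the 55, 53 and 39 genes called with edgeR, 26, 22 and 23 had a mean below 5 counts. These contrasts are between sets of 16 wells each. A herb has 3 wells, which carry the set number of its own DMSO wells. The counts therefore do not give the number of false calls in a herb comparison. Of the 13 genes called over the 3 sets with a mean below 10 counts, TF, JAK3, IGFBP1 and CTSG had no well above the floor, and no fold change is given for them. POMC, called between HK2_4 and HK2_2 (adjusted p = 0.0188, edgeR), held medians of 3 and 4 counts per well there. CYP1B1 was above the floor in 1 well.

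Within a set the wells were close, but not as close as counting alone would allow. Over the 96 genes with a mean of at least 50 counts, the median SD of log2 CPM between wells of a set was 0.23, a fold of 1.17, against 0.13 expected from counting, and the biological coefficient of variation estimated by edgeR had a median of 0.147. The steadiest genes were PPP2R5C (0.0851), TXN (0.0903), RHOA (0.0977), IL18, FUCA2 (0.104) and HSP90B1 (0.104). IL18 varied by no more than 1.08 times its counting error. The share of variance that lay between sets had a median of 34.7% and exceeded 50% for 38 of the 96 genes. It reached 88.6% for YWHAE, 86.6% for RHOA, 82.7% for IL6 and 81.4% for HIF1A, and was estimated at 0 for 6 genes, CALM2 among them. RHOA thus had one of the smallest spreads within a set and one of the largest shares between sets.

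**Figure D4:**
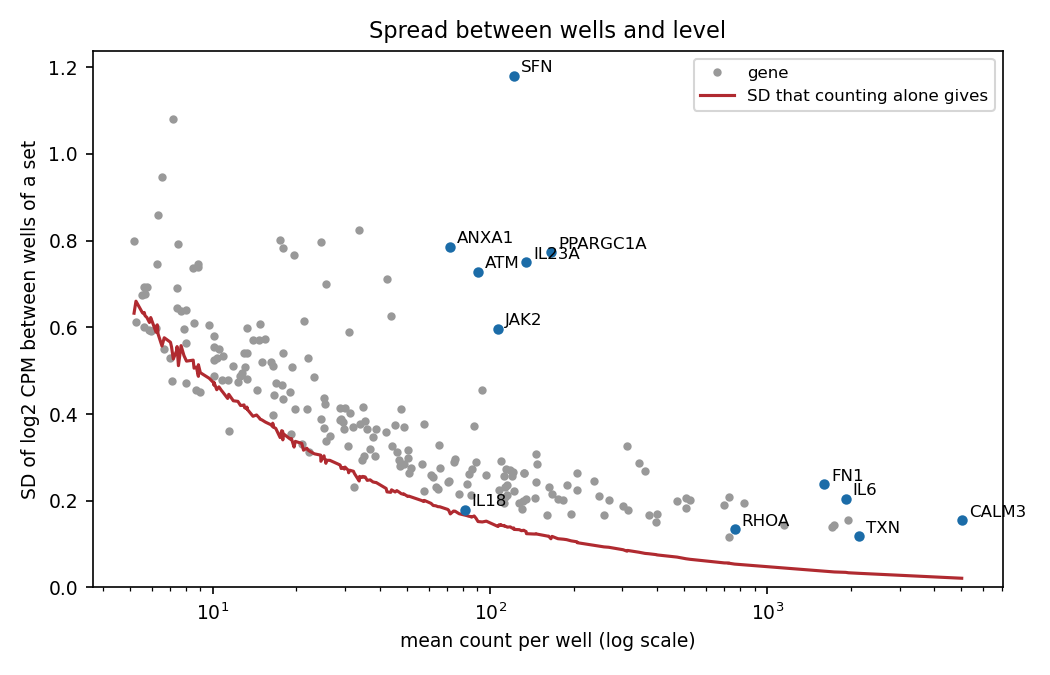
SD of log2 CPM between wells of a set against mean count per well (log scale), 1 point for each gene with a mean of at least 5 counts, with the SD that counting alone gives as a line. Most genes follow the line at a distance, while SFN, ANXA1, ATM, IL23A, PPARGC1A and JAK2 lie far above it.

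The most variable gene was SFN (Entrez 2810), the epithelial 14-3-3 sigma, with a coefficient of 0.641. It had 427 to 9294 CPM (median 3081) in HK2_2, 592 to 8729 (median 4011) in HK2_3 and 506 to 6582 (median 3090) in HK2_4, with the highest well 21.8 times the lowest in HK2_2 and 14.7 times in HK2_3. Wells below 1000 CPM numbered 3, 3 and 4, and the wells numbered 12 were the lowest of their set in all 3. The sets overlapped fully, and SFN did not differ between them (adjusted p = 0.681, edgeR). SFN did not follow the genes described next (r = -0.07 with their common component over 48 wells).

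The other highly variable genes rose and fell together. After each set's mean was removed, 1 component held 33.2% of the variance of the 143 genes with a mean of at least 20 counts, and 11 genes correlated with it at 0.8 or more: the kinase JAK2, the acetyltransferase KAT2B, annexin A1 (ANXA1), the G protein subunits GNGT2 and GNAI1, the coactivator PPARGC1A, cystatin C (CST3), the DNA damage kinase ATM, the cytokine subunit IL23A, SOCS5 and PTK2B. Pairs of them correlated at 0.66 to 0.90 over the 48 wells, with a median of 0.82, against a median of 0.03 over all 10153 pairs. These genes were chosen by this behaviour, so the values are a description without a test. PPARGC1A and ANXA1 were the closest pair (r = 0.90). PPARGC1A, a regulator of mitochondrial biogenesis, had 1759 to 10943 CPM (median 3621) in HK2_2, 984 to 9730 (median 3434) in HK2_3 and 2104 to 14302 (median 5026) in HK2_4. YWHAB ran opposite to the component (r = -0.66). None of the 11 genes passed the test between sets, with adjusted p from 0.0642 for GNAI1 to 0.330 for IL23A (edgeR).

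For some well numbers, but not for others, the group level recurred in all 3 sets. The mean level of the 11 genes was highest in the well numbered 14 in each set, at 2.17, 2.21 and 3.03 times the set mean, and the wells numbered 12, 13, 14 and 15 were above the set mean in all 3 sets. The wells numbered 2, 5, 8, 9 and 10 were below it in all 3. Between same-numbered wells of HK2_2 and HK2_3 the group level had r = 0.64 and rho = 0.61 (n = 16), between HK2_3 and HK2_4 r = 0.72 and rho = 0.68, and between HK2_2 and HK2_4 r = 0.46 and rho = 0.36, which dropped to r = 0.11 without the 2 wells farthest from the median in HK2_2. The group was also higher in wells with fewer counts, with r = -0.56, -0.72 and -0.39 against log2 total count (rho = -0.56, -0.63 and -0.29, n = 16 each; r = -0.70, -0.69 and -0.38 without the 2 wells of most extreme depth). The number-14 wells held 29609, 24077 and 22830 counts. Permutation tests of r for depth gave adjusted p = 0.0363, 0.0057 and 0.136 in HK2_2, HK2_3 and HK2_4. For same-numbered wells they gave 0.0150 (HK2_2 and HK2_3), 0.0057 (HK2_3 and HK2_4) and 0.0860 (HK2_2 and HK2_4). What the number stands for is not stated in the labels, and whether it or depth caused these levels was not tested. Without the wells numbered 14 and 15, 109 genes differed over the 3 sets, 100 of them among the 108.

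**Figure D5:**
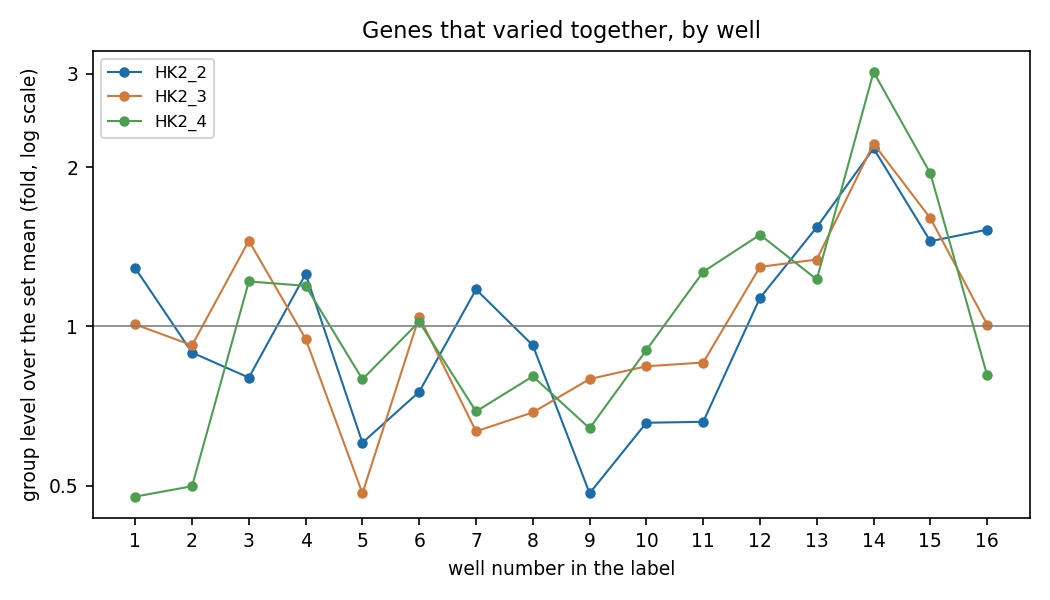
Mean level of the 11 genes that varied together, as a fold of the set mean (log scale), against the well number in the label, with 1 line for each set. The well numbered 14 is the highest of its set in all 3 sets (2.17, 2.21 and 3.03 times the set mean).

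Other pairs of genes were compared after each set's mean was removed. HSP90B1 followed CALM3 most closely of all genes (r = 0.92 over 48 wells; 0.95, 0.90 and 0.91 within HK2_2, HK2_3 and HK2_4). IL6 was most like CDC42 (r = 0.73) and HIF1A (r = 0.71; 0.86, 0.69 and 0.40 within sets), less like LIF (0.38; 0.61, 0.27 and -0.32 within sets) and STAT3 (0.18; 0.04, 0.34 and 0.25). HIF1A was not like its known target VEGFA (r = 0.13; 0.31, 0.10 and -0.07 within sets), which went with ANXA1 (0.72). ITGB1 was not like PTK2, the kinase of focal adhesions, over all wells (-0.25), but the value varied from -0.07 and 0.22 in HK2_2 and HK2_3 to -0.68 in HK2_4. The cytosolic chaperones HSP90AA1 and HSP90AB1 were each other's nearest gene (r = 0.61; 0.72, 0.68 and 0.41 within sets), whereas HSP90AB1 did not follow its relative of the endoplasmic reticulum, HSP90B1 (r = -0.07; -0.50, 0.23 and 0.17 within sets). All of these coefficients are across wells that share depth and normalization, and they carry no test.

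The same chaperones differed between sets. HSP90AB1 had 515 to 1333 CPM (median 1037) in HK2_2, 777 to 1820 (median 1344) in HK2_3 and 820 to 2082 (median 1505) in HK2_4, overlapping ranges with log2 differences from HK2_2 of 0.39 and 0.60 (adjusted p = 0.0233 and 0.000314, edgeR). HSP90AA1 had 232 to 875 CPM (median 589), 337 to 1067 (median 677) and 364 to 1142 (median 715), and it passed the test in HK2_4 (0.51, adjusted p = 0.0281, edgeR) but not in HK2_3 (0.43, adjusted p = 0.0682, edgeR). HSP90B1 had a difference of -0.17 in HK2_3 (adjusted p = 0.00942, edgeR), a call that was lost with upper-quartile scaling (adjusted p = 0.357, edgeR), with total scaling, after thinning and after both filters on low counts.

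The promoters of IL6, the abundant gene that differed most between HK2_2 and HK2_4, and of the 2 HSP90 genes that moved together are shown for their known regulatory motifs. IL6 is a classic target of NF-kappa B, and the cytosolic HSP90 genes are targets of heat shock factor. Sequences are RefSeq promoters of GRCh38.p14, each from 250 bases before to 50 after a transcription start, written 5′ to 3′ on the gene's strand. Capitals mark a kappa B motif (GGGA and TTCC with NN between them, either strand) in IL6, and GAANNTTC or TTCNNGAA, which read the same on both strands and can overlap each other, in the HSP90 genes.
IL6, chr7:22726950-22727249, plus strand: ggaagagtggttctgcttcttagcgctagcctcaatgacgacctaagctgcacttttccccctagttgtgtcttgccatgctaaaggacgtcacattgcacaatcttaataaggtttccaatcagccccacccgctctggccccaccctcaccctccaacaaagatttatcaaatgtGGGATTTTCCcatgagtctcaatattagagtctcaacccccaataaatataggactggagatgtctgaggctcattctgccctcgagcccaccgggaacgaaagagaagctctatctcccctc
HSP90AA1, chr14:102086995-102087294, minus strand: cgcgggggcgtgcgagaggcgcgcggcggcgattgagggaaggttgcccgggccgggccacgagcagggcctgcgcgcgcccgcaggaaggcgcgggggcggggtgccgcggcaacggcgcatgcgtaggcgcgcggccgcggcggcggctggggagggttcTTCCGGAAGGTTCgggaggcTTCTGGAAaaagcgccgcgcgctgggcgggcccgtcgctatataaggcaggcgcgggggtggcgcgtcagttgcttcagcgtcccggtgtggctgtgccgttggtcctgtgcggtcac
HSP90AB1, chr6:44247693-44247992, plus strand: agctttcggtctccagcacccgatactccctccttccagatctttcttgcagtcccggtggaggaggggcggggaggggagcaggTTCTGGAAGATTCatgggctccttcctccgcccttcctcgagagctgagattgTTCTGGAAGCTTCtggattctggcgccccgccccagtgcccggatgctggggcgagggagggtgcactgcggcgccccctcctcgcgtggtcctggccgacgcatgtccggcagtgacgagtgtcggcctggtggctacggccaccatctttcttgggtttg
IL6 held 1 match, which 1.61% of the 35116 RefSeq promoters hold. HSP90AA1 held 3 and HSP90AB1 4 matches, and at least 1 is found in 13.5% of promoters. One of 2 listed HSP90AA1 starts and 1 of 3 HSP90AB1 starts held a match, and those are the starts shown. The promoter of HSPB1 was also searched with the HSP90 motifs and held 1 match (not shown). HSPB1 had r = 0.37 with HSP90AA1 over 48 wells. With HSP90AB1 it had r = 0.21 (0.56, -0.16 and -0.05 within HK2_2, HK2_3 and HK2_4). A match describes the letters only, and binding was not measured.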

How the data were processed

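HK-2 wells were profiled with a RASL-seq probe panel. According to the labels and methods, probes were annealed to RNA captured on oligo(dT) beads, ligated, amplified by PCR and sequenced on an Illumina HiSeq instrument, read 1 alone was used, and reads with more than 3 mismatched bases were filtered. Bowtie2 2.2.4 and DESeq2 1.22.1 are named in the submitters' processing notes. The genome build is not given in the sources used here. The values deposited by the authors are raw counts per gene and well, 1 table a well, without normalization and without pooling. The 9 wells with herbal extracts were not used here. All 412 Entrez identifiers matched a symbol in RefSeq.

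The 48 DMSO wells were assigned to sets from their titles. Counts of all genes with a nonzero total were fitted with edgeR 4.0.16 in R 4.3.3 (TMM normalization, quasi-likelihood F test, sets as groups, Benjamini-Hochberg adjustment over all 412 genes, called under 0.05). CPM were computed with TMM factors, and log2 CPM with a prior count of 2. Components were taken from log2 CPM of genes with a mean of at least 20 counts after removal of each set's mean. The script was tested on simulated data. Counts are PCR products without molecular identifiers, so floors and counting errors cover counting only. Python 3.11.15, numpy 2.4.6 and scipy 1.17.1 were used.

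Named genes were the 20 highest, the 12 largest differences and 5 smallest p among genes with a mean of at least 10 counts, the highest and smallest-p member of each list, the 6 least and 6 most variable genes with a mean of at least 50 counts, and 14 key targets of the study. Other members of the lists, genes without overlap between sets and nearest genes were named after their values were seen. Members and lists were chosen with earlier results of these data known, and the plasma protein list was made after the panel's names were seen. Alternatives were RLE, upper-quartile and no normalization, DESeq2 1.42.0, minimum counts, robust fitting, the total count as covariate, thinning, the well number as block, and leaving out wells. Results for some panel genes are not reported here.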

Additional observations from a re-analysis of the deposited data

How the results depend on the processing

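The count of genes that differed over the 3 sets lay between 78 (thinned to 19690 counts) and 130 (replicate block) under the alternative fits, against 108, and fell to 47 when a fold change above 1.5 or below 0.67 was required as well. That requirement left 38 genes for HK2_3 against HK2_2, 35 for HK2_4 against HK2_2 and 4 for HK2_4 against HK2_3. RLE gave 111 genes (102 shared with the 108), DESeq2 115 (99 shared) and total scaling 107 (96 shared). With DESeq2 the median log2 difference of all genes between HK2_4 and HK2_2 was 0.15, against 0.04.

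With the well number as a replicate block, 51 genes differed between HK2_4 and HK2_3 against 24, and 25 passed the study's criteria against 39. The numbers were not taken to pair the wells: same-numbered wells of different sets correlated at -0.30 to 0.82 (median 0.20, above 0.1 in 27 of 48 pairs), against a median of -0.02 for different numbers, and 12 of 48 wells correlated best with their own number. For the wells numbered 14 the values were 0.72 to 0.82. PPARGC1A, ANXA1 and JAK2, of the genes that varied together, passed between HK2_4 and HK2_3 under the block.

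The counts by the study's criteria depended most on low counts. For HK2_3 against HK2_2 they were 33 with a mean count of at least 5 and 32 with filterByExpr (55 without), for HK2_4 against HK2_2 34 with filterByExpr (53), and for HK2_4 against HK2_3 17 and 13 (39), or 23 with the total count as covariate. Fewer genes were tested under both filters. Of the 20 highest genes, 18 to 20 stayed in the first 20 by median CPM, without TMM or in a single set. Genes above 0 counts in every well numbered 200, and above 10 counts 119, against 156 above 3. No named gene changed direction in a called comparison.

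Leaving out the well least like the others left 108 genes (102 shared), and leaving out 3 such wells 96 (93 shared). Both were chosen after the data were seen, as was leaving out the wells numbered 14 and 15. At 19690 counts in the shallowest well, genes under 152 CPM could not be resolved there.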
